A study of Mus musculus with 20 samples.

Results

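Klf15 and 7 genes of branched-chain amino acid breakdown were followed across 4 groups of mouse muscle libraries. The genes were taken by symbol from the deposited count table, and all 8 symbols (Klf15, Bcat2, Bckdha, Bckdhb, Dbt, Bckdk, Ppm1k and Ivd) were found among its 21844 rows. The study asked what loss of the clock factor BMAL1 in skeletal muscle does to messenger RNA, with and without 6 weeks of daily treadmill training. All mice carried the genotype Cre+:iMSBmal1 fl/fl, a floxed Bmal1 gene with a muscle-specific, inducible Cre recombinase, so the controls carried the Cre as well. They were given vehicle, or were made knockouts (labelled iMSBmal1KO), and either had no exercise or were trained, with 5 libraries in each of the 4 groups. The labels give the tissue both as gastrocnemius and as tibialis anterior, and the collection time both as 48 hours and as 47 hours after the last bout. Ages are not given in the labels. The name of the Cre line places recombination in muscle fibres, so other cells of the tissue would keep the gene.

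The branched-chain amino acids leucine, isoleucine and valine are broken down largely outside the liver, with skeletal muscle as a main site of the first step. Mitochondrial branched-chain aminotransferase (Bcat2) moves their amino group to 2-oxoglutarate, and the branched-chain ketoacid dehydrogenase complex then commits the carbon skeletons to oxidation. That complex is built from E1 subunits (Bckdha and Bckdhb), the E2 core (Dbt) and a shared E3 subunit; the kinase Bckdk switches it off and the phosphatase Ppm1k switches it on. Isovaleryl-CoA dehydrogenase (Ivd) carries out the next step for leucine. KLF15 is a Krüppel-like transcription factor known to respond to glucocorticoids and to fasting, to vary over the day in muscle, and to promote Bcat2 and other genes of amino acid use.

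The proximal promoter of Klf15 is shown because the study removes a factor that binds the E-box. The window, from RefSeq on build GRCm38.p6, plus strand, chr6:90462326-90462578, runs from 250 bases before the annotated transcript start, and the capitals mark CACGTG, the core E-box, which reads the same on both strands.
Klf15: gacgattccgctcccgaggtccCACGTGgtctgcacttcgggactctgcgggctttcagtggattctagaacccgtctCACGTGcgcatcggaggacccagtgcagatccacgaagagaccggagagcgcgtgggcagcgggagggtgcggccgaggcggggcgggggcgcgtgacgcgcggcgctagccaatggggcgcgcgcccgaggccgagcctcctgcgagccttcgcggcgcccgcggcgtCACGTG
The 3 matches begin at positions -228, -172 and -3 from the start. At least 1 CACGTG stood in 7.15% of the 32851 RefSeq mouse promoter windows of 250 bases before to 50 after a start, and 3 or more stood in 29 of them (0.0883%). Promoter windows matched 7 of the 8 genes, 9 windows in all; none matched Dbt. The other windows of these genes held no CACGTG. A match of letters is not a measured binding site.

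The libraries held between 10610333 and 19153527 estimated counts, and the lowest count of any of the 8 genes in any library was 155, for Bckdhb. Libraries 1 and 4, and libraries 3 and 5, of the group labelled knockout trained differed from each other by about sampling noise and were each counted as 1 sample, which leaves n = 3 there. Nothing in the labels says that the libraries came from separate animals, so p-values measure only the spread between these samples. Vehicle trained library 2 stood apart from its group across the transcriptome. Results on the 8 genes are given with and without it, and other values name the samples they come from. The knockout trained samples were not uniform either. Relative to sampling noise at high counts, libraries 1 and 4 differed from libraries 2, 3 and 5 by 37.7 to 65.9. From knockout sedentary library 4 they differed by 7.15 and 7.36. Vehicle trained library 1 differed by 15.7 from knockout trained library 2, and by 23.1 to 37.5 from vehicle trained libraries 3 to 5. The cause of these differences was not tested. The targeted gene, listed as Arntl, did not check the labels by its level, which in sedentary muscle was 6.67 ± 0.695 CPM (reads of a gene relative to the scaled library total; SD, n = 5) with vehicle and 12.5 ± 2.97 (n = 5) with the knockout label. In trained muscle they were 6.51 ± 0.421 (n = 4, without library 2) and 11.4 ± 3.75 (n = 3). Library 2 itself stood at 142.1 CPM of Arntl, 21.8-fold above the mean of the other 4, and with it the vehicle trained mean was 33.6 ± 60.6. The trained log2 change of Arntl was thus -1.57 (SE 0.875, adjusted p = 0.372, edgeR) with that library and 0.81 (SE 0.198, adjusted p = 0.0149) without it, so its direction depended on 1 library. In sedentary muscle it was 0.91 (adjusted p = 0.886) and 0.92 (adjusted p = 0.00115). Gene-level counts do not separate a transcript with a deleted exon from a whole one, so "knockout" below stands for the label. Per kilobase of exon, the vehicle sedentary levels were highest for Bckdha (52.0 ± 6.95 CPM per kilobase, SD, n = 5), followed by Bckdk (25.7), Ivd (22.6), Bcat2 (19.3), Klf15 (18.03), Dbt (11.3), Bckdhb (10.1) and Ppm1k (4.40). From Bckdk to Klf15 the neighbours in this order overlapped between libraries, as did Dbt and Bckdhb.

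**Figure D1:**
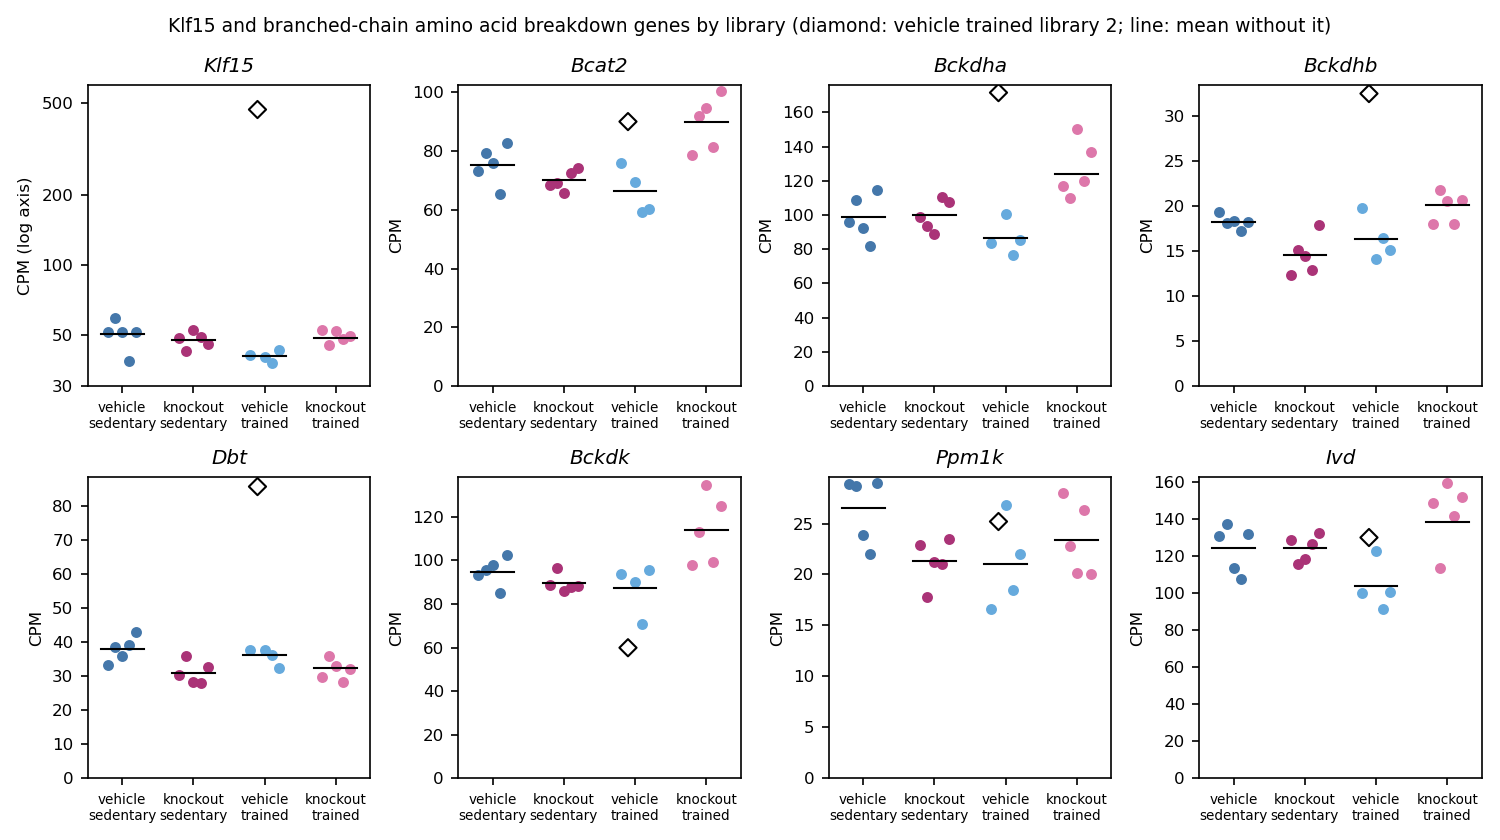
CPM of each of the 8 genes in all 20 libraries, by group, with a log axis for Klf15 and linear axes from 0 for the others. Horizontal lines are group means without vehicle trained library 2, the open diamond, which reached 467.9 CPM for Klf15 while the other 4 lay between 37.6 and 42.8.

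Klf15 lay between 37.6 and 58.7 CPM in all libraries but 1, where it was far higher. In sedentary muscle its level was 51.2, 58.7, 51.5, 38.6 and 51.6 CPM with vehicle and 48.6, 42.5, 52.2, 48.9 and 45.6 CPM with the knockout label. In vehicle trained muscle it was 40.9, 467.9, 40.0, 37.6 and 42.8 CPM, and in knockout trained muscle 52.5, 45.0, 51.6, 47.9 and 49.2 CPM. Only library 2 of the vehicle trained group was high, and the other 4 all lay below every library labelled knockout trained. The group means were 50.3 ± 7.27 in vehicle sedentary, 48.5 ± 3.08 (n = 3) in knockout trained, 47.6 ± 3.65 in knockout sedentary and 40.3 ± 2.17 CPM (n = 4, without library 2) in vehicle trained muscle. Neighbours in this order overlapped. With library 2, the vehicle trained mean was 125.8 ± 191 CPM.

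Klf15 passed the test in none of the 5 contrasts, with or without that library. Its log2 change with knockout was -0.09 (SE 0.564) in sedentary muscle and -1.39 (SE 0.684, adjusted p = 0.309, edgeR quasi-likelihood test) in trained muscle. Without library 2 the trained value turned to 0.27 (SE 0.112, adjusted p = 0.161). Training in vehicle muscle gave 1.32 (SE 0.571, adjusted p = 0.299) with the library and -0.32 (SE 0.0996, adjusted p = 0.343) without it. Both directions turned when this 1 library was left out. Training in muscle labelled knockout gave 0.02 (SE 0.650) and, with the vehicle trained library removed from the shared estimate of spread, 0.03 (SE 0.107).

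Bcat2 and Bckdha, the first enzyme and the catalytic E1 subunit, were higher in knockout than in vehicle trained muscle once library 2 was left out. Bcat2 was 76.0, 90.1, 69.3, 59.4 and 60.5 CPM in the vehicle trained libraries and 78.8, 91.9, 94.6, 81.4 and 100.6 CPM in the knockout trained ones. Apart from library 2 the vehicle values all lay below the knockout values, and in sedentary muscle the groups, with means of 75.4 ± 6.57 (vehicle) and 70.0 ± 3.35 CPM (knockout), overlapped. Bckdha was 83.4, 171.5, 100.4, 76.6 and 85.7 CPM in vehicle trained and 116.9, 110.2, 150.6, 120.2 and 137.0 CPM in knockout trained libraries. Library 2 was again above every other library for Bckdha, and the other 4 lay below all knockout trained samples. Without library 2, Bcat2 rose by 0.44 on the log2 scale (SE 0.104, adjusted p = 0.0125) and Bckdha by 0.52 (SE 0.127, adjusted p = 0.0151). With it, the values were 0.33 (adjusted p = 0.198) and 0.25 (adjusted p = 0.570), and neither passed. Exons of Bcat2 overlap those of 0610005C13Rik on the opposite strand over up to 247 bases, and those of Bckdha overlap B3gnt8 over up to 488 bases. The strand setting of the counting is not given in the sources used here, so part of these counts may belong to those genes.

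The other subunits of the complex did not follow Bckdha as a block. Bckdhb, the second E1 subunit, had group means of 18.2 ± 0.762 in vehicle sedentary, 14.5 ± 2.21 in knockout sedentary, 16.4 ± 2.45 (n = 4, without library 2) in vehicle trained and 20.1 ± 1.93 CPM (n = 3) in knockout trained muscle. Its 5 knockout sedentary libraries, at 12.3, 15.1, 14.4, 12.9 and 17.9 CPM, overlapped the vehicle sedentary ones, at 19.3, 18.1, 18.3, 17.2 and 18.2 CPM, through 1 library only. Dbt, the E2 core, had sedentary means of 37.9 ± 3.65 (vehicle) and 31.1 ± 3.31 CPM (knockout). In trained muscle its means were 36.1 ± 2.49 (n = 4, without library 2) and 32.5 ± 3.49 CPM (n = 3). Dbt was thus the 1 gene of the 8 with a lower mean in knockout than in vehicle trained muscle without library 2 (log2 change -0.16, SE 0.110, adjusted p = 0.436). In sedentary muscle without library 2, the log2 changes were -0.33 for Bckdhb (SE 0.108, adjusted p = 0.0870) and -0.29 for Dbt (SE 0.0908, adjusted p = 0.0693), and neither passed. With all samples these adjusted p-values were 0.649 and 0.819.

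Bckdk, the kinase that turns the complex off, was higher in trained muscle labelled knockout, while Ppm1k, the phosphatase that turns it on, did not pass in any contrast. Bckdk was 93.5, 59.9, 90.2, 70.6 and 95.7 CPM in vehicle trained and 97.8, 112.9, 134.6, 99.3 and 124.9 CPM in knockout trained libraries. All knockout trained values were above all vehicle trained ones, and for this gene library 2 was the lowest of the 20. The log2 change was 0.46 (SE 0.136, adjusted p = 0.0748) with all samples and 0.38 (SE 0.110, adjusted p = 0.0397) without library 2. Ppm1k had means of 26.5 ± 3.28 in vehicle sedentary, 21.3 ± 2.20 in knockout sedentary, 21.01 ± 4.47 (n = 4, without library 2) in vehicle trained and 23.4 ± 3.55 CPM (n = 3) in knockout trained muscle. Its groups overlapped in every contrast, and its sedentary log2 change was -0.31 (SE 0.127, adjusted p = 0.187) without library 2.

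Ivd, the leucine-branch dehydrogenase, was higher in trained muscle labelled knockout without library 2. Its values were 99.9, 129.9, 122.7, 91.2 and 100.7 CPM in vehicle trained and 148.6, 113.7, 159.3, 141.8 and 152.1 CPM in knockout trained libraries. The groups overlapped through knockout trained library 2 at 113.7 CPM. The log2 change was 0.41 (SE 0.121, adjusted p = 0.0392) without vehicle trained library 2 and 0.33 (SE 0.135, adjusted p = 0.208) with it. In sedentary muscle Ivd was at 124.1 ± 12.8 CPM (SD, n = 5) with vehicle and between 115.4 and 132.2 CPM, with a mean of 124.2, with the knockout label (log2 change -0.0033, SE 0.118).

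**Figure D2:**
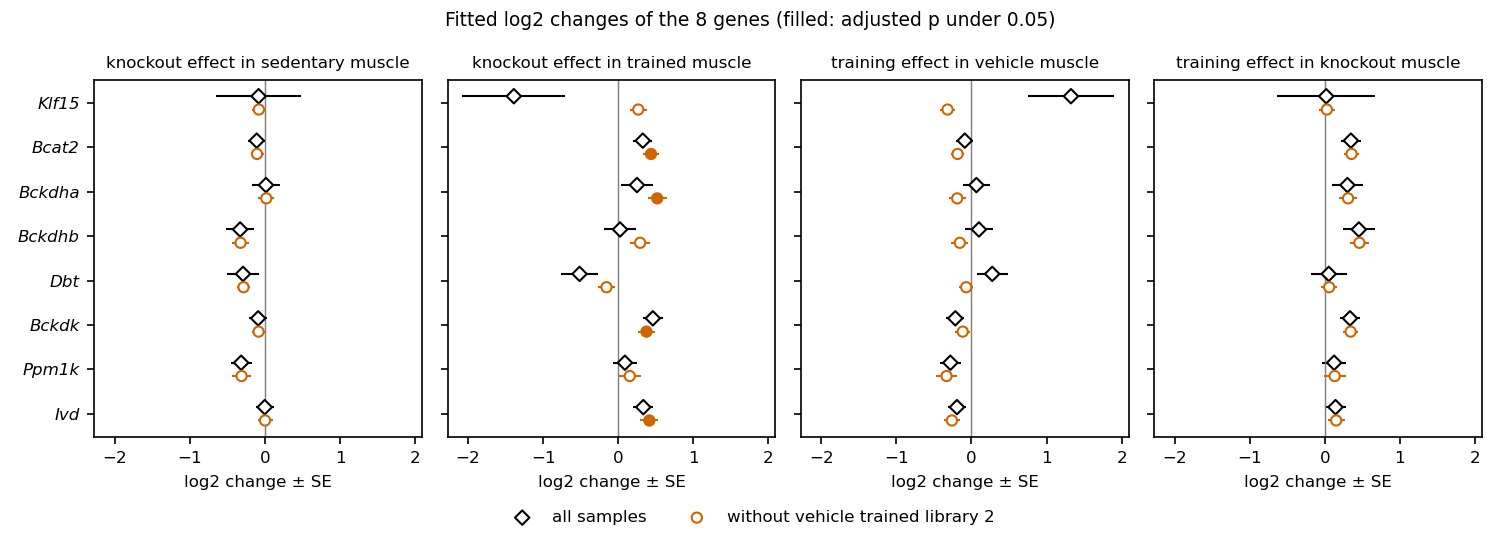
Log2 changes and standard errors of the 8 genes in 4 contrasts, with all samples (diamonds) and without vehicle trained library 2 (circles); filled symbols have an adjusted p under 0.05. Filled symbols appear for Bcat2, Bckdha, Bckdk and Ivd in the trained knockout contrast only, and Klf15 changes side between the fits in both contrasts that use the vehicle trained group.

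Counted over the 8 genes, the knockout contrast in trained muscle was the 1 contrast with calls in the main edgeR fits. The calls DESeq2 made in other contrasts without library 2 are given with them. Calls of altered edgeR fits are given at the end. Without vehicle trained library 2, 4 of 8 passed, all higher (Bcat2, Bckdha, Bckdk and Ivd), where 8.66% of the 14359 genes tested passed in either direction and 5.01% passed as higher. The median log2 change of the 8 was 0.33, and that of all tested genes was 0.0045. The groups did not overlap for 4 of 8 (Klf15, Bcat2, Bckdha and Bckdk), against 15.9% of all genes. With all samples none of the 8 passed by edgeR's quasi-likelihood test, against 3.29% of genes. An unadjusted p under 0.05 stood for 4 of 8, against 2467 of the 14359 genes. DESeq2 called 1, Bckdk, and limma called 0. DESeq2 gave Klf15 no adjusted p there, so it could not call that gene. Its counts of 0 in other contrasts with all samples may likewise leave Klf15 out. The groups then did not overlap for 1 of 8 (Bckdk), against 8.96%. The 4 calls depended on single samples: 0 of 8 passed when vehicle trained library 4 was also left out, and 0 when the summed knockout trained libraries 3 and 5 were. They fell to 2 without knockout sedentary library 1, or with no filter on low counts.

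Marker levels in trained muscle were compared as sums and by gene. The 10 muscle-defining genes summed to between 77623 and 111061 CPM in knockout trained samples and between 80071 and 91825 CPM in the 4 other vehicle trained libraries, and the 7 slow-fibre genes to between 956 and 1438 and between 399 and 1353 CPM. Fibroblast markers (6 genes) summed to between 875 and 2093 CPM against 1696 to 2818, macrophage markers (8 genes) to between 53.9 and 350 against 156 to 366, and adipocyte markers (8 genes) to between 376 and 800 against 246 to 1132. None of these markers was at 0 in all samples of a group, and the ranges overlapped for each list. By gene, without library 2, the knockout value lay above 0 for 9 of 10 muscle-defining genes (median 0.30; Mylpf passed as higher) and 7 of 7 slow-fibre genes (median 0.82; Tnni1 passed as higher). It lay below 0 for all 8 macrophage markers (median -0.61) and all 6 fibroblast markers (median -0.56), of which Pi16 passed as lower. Of the endothelial markers 5 of 6 lay above 0 (median 0.30), and of the adipocyte markers 4 of 8 (median -0.01). Their part in the calls was not tested, and in whole muscle fewer cells of a type and less RNA per cell cannot be told apart.

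In sedentary muscle none of the 8 genes passed the knockout test by edgeR with all samples, where 2.33% of all genes passed. At an unadjusted p under 0.05 stood 1 of 8, Ppm1k, against 1409 of 14359 genes. By DESeq2 and by limma 0 passed. The groups overlapped for all 8, against 8.68% of genes without overlap. Fitted values lay below 0 for 7 of 8, with a median of -0.10, against 0.01 for all genes. Without vehicle trained library 2, which is not in this contrast but enters the shared spread estimate, 0 of 8 passed against 6.98% of genes. An unadjusted p under 0.05 stood for 3 of 8, against 2533 of the 14359 genes, and Dbt alone passed by DESeq2. The groups' overlap is the same in that fit, as neither group changes.

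Training in vehicle muscle gave no call among the 8, nor among all genes (0%). All 8 groups overlapped, against 1.87% of genes without overlap with library 2 and 3.36% without it. At an unadjusted p under 0.05 stood 1 of 8 with all samples (Klf15), against 2186 of 14359 genes. Without library 2 it was 3 of 8 (Klf15, Ppm1k and Ivd), against 1869 genes. DESeq2 and limma made 0 calls in either case, though with all samples DESeq2 may not have tested Klf15. Without library 2 all 8 fitted values lay below 0, with a median of -0.19. Of all tested genes 49.5% lay above 0 in that fit, with a median of -0.0028. Among markers, 8 of 8 adipocyte genes (median 1.14), 8 of 8 macrophage genes (median 0.89) and 6 of 6 fibroblast genes (median 0.67) lay above 0. So did 6 of 10 muscle-defining genes (median 0.02), 2 of 6 endothelial genes (median -0.10) and 1 of 7 slow-fibre genes (median -0.60). The part of these markers was not tested.

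Training in muscle labelled knockout showed values above 0 for all 8 genes, with a median log2 change of 0.22. Of all tested genes 47.4% lay above 0, with a median of -0.017. No gene passed with all samples (0% of all genes, and 0 of the 8 by DESeq2 and by limma). At an unadjusted p under 0.05 stood 3 of the 8, against 1393 of 14359 genes. The largest value was that of Bckdhb, whose 3 trained samples lay above all 5 sedentary ones (log2 change 0.45, SE 0.209, adjusted p = 0.492). The groups also did not overlap for Bcat2 and Bckdk, which makes 3 of 8 against 8.64% of all genes. Without vehicle trained library 2, 0.843% of genes passed and none of the 8 did, with adjusted p-values of 0.0663 for Bckdhb, 0.0755 for Bcat2 and 0.0947 for Bckdk. DESeq2 called these 3, and limma called 0. Marker lists differed in direction with all samples. Values lay above 0 for 9 of 10 muscle-defining genes (median 0.38) and 6 of 7 slow-fibre genes (median 0.64). The same held for 8 of 8 adipocyte genes (median 1.22) and 5 of 5 blood genes (median 0.98). Above 0 were also 5 of 8 macrophage genes (median 0.03) and 4 of 6 endothelial genes (median 0.02), but 0 of 6 fibroblast genes (median -0.32). The adipocyte sums, at 376 to 800 CPM in trained and 312 to 364 CPM in sedentary knockout muscle, did not overlap, and the part of these markers was not tested.

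The interaction asks whether training changed a gene differently in the 2 genotypes, and none of the 8 passed it, nor did any gene (0%). With all samples Bckdk had the highest log2 value above 0 (0.55, SE 0.182, adjusted p = 0.613), and Klf15 lay at -1.30 (SE 0.874, adjusted p = 0.718). An unadjusted p under 0.05 stood for 2 of the 8, against 1076 of 14359 genes. Without library 2 all 8 values lay above 0, from 0.13 for Dbt to 0.62 for Bckdhb, where 50.2% of all genes did. Of the 8, 7 had an unadjusted p under 0.05, against 1643 of the 14359 genes. The smallest adjusted p among them was 0.225, for Bcat2 (0.54, SE 0.135), which was also the 1 gene DESeq2 called. In the edgeR fit without library 2, values also lay above 0 for 9 of 10 muscle-defining genes (median 0.35) and 7 of 7 slow-fibre genes (median 1.16). The same held for 5 of 8 adipocyte genes (median 0.11) and 4 of 6 endothelial genes (median 0.14). Above 0 were 0 of 8 macrophage genes (median -0.93) and 0 of 6 fibroblast genes (median -0.96). The part of these markers was not tested. The knockout and training contrasts share groups, so their values are not independent of each other.

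The breakdown pathway was then followed through 29 enzymes and regulators of all branches, 28 of them tested. Bcat1, the cytosolic aminotransferase, was too low in every group to test. The 28 include all of the 8 genes but Klf15, so 21 of the 28 are further genes. In trained muscle labelled knockout, 4 of the 28 rose with all samples and 0 fell, where 3.29% of all genes passed. They were Hadha, Hadhb, Acad8 and Pccb. Hadha and Hadhb are the subunits of the mitochondrial trifunctional protein, an enzyme of fatty acid oxidation that was listed here with the isoleucine branch. They were the 2 of the 6 tested genes of that list to pass. Acad8 is the isobutyryl-CoA dehydrogenase of the valine branch, and Pccb is a subunit of propionyl-CoA carboxylase. The log2 changes of the 4 were 0.63 (SE 0.168, adjusted p = 0.0462) for Hadha, 0.90 (SE 0.159, adjusted p = 0.00325) for Hadhb, 0.48 (SE 0.120, adjusted p = 0.0327) for Acad8 and 0.43 (SE 0.115, adjusted p = 0.0494) for Pccb. For these 4, no knockout trained sample overlapped a vehicle trained library, library 2 included, and the means of Hadhb were 184.3 ± 8.80 CPM (n = 3) and 98.0 ± 19.8 CPM (n = 5). Of the 28, 25 had a value above 0 and the median was 0.21. Of all tested genes 46.8% lay above 0, with a median of -0.027. Without library 2, 9 of 28 rose, where 8.66% of all genes passed and 5.01% passed as higher, among them these 4 and the 4 named above. Hadha overlaps Garem2 on the opposite strand over up to 75 exon bases.

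**Figure D3:**
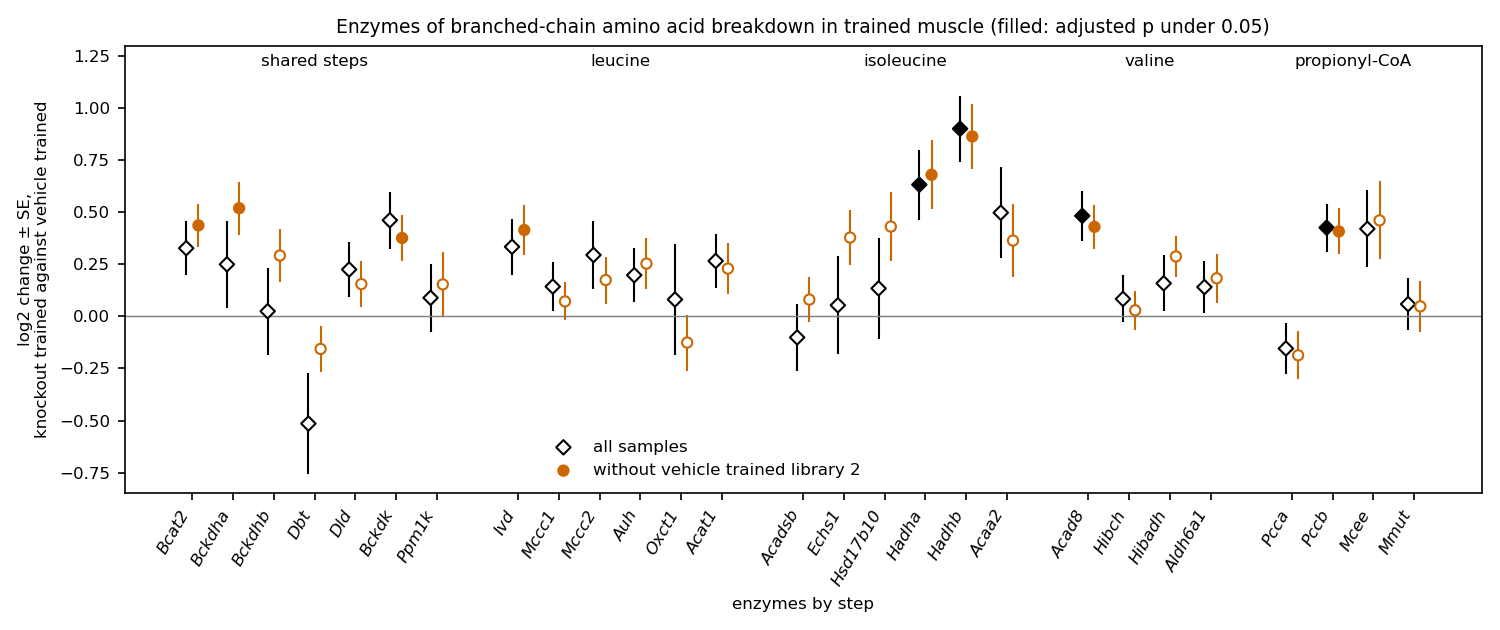
Log2 change and SE for enzymes and regulators of branched-chain amino acid breakdown, knockout trained against vehicle trained, ordered by step, with all samples (diamonds) and without vehicle trained library 2 (circles); filled symbols have an adjusted p under 0.05. Most symbols lie above 0, Hadhb is highest, and Dbt and Pcca lie below 0 in both fits.

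In sedentary muscle 0 of the 28 passed with all samples (2.33% of all genes did) and 1 fell without library 2 (6.98% of all genes passed): Oxct1, the ketone-body transferase, at 348.9 ± 37.8 CPM in vehicle and 248.5 ± 33.8 CPM in knockout libraries (log2 change -0.49, SE 0.111, adjusted p = 0.00820; with all samples the adjusted p was 0.492). The groups did not overlap for Oxct1. Its exons overlap BC037032 on the opposite strand over up to 467 bases. In trained muscle its value was -0.13 (adjusted p = 0.639) without library 2 and 0.08 (adjusted p = 0.909) with it.

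Of the 6 transporters that carry these amino acids across the plasma or mitochondrial membrane, 1 fell in trained muscle, where 3.29% of all genes passed with all samples and 8.66% without library 2. In sedentary muscle Slc7a8 (LAT2) stood at 26.8 ± 3.99 (vehicle) and 16.1 ± 2.69 CPM (knockout), with no overlap. In trained muscle it was at 27.0 ± 4.85 (n = 4, without library 2) and 13.6 ± 3.89 CPM (n = 3), again with no overlap. Its log2 change in trained muscle was -1.53 (SE 0.373, adjusted p = 0.0290) with all samples and -0.98 (SE 0.195, adjusted p = 0.00332) without library 2. In sedentary muscle it was -0.74 (adjusted p = 0.385) and -0.73 (SE 0.159, adjusted p = 0.00585). Slc25a44, the mitochondrial carrier of these amino acids, did not pass in any contrast.

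Genes that handle the amino nitrogen released by Bcat2 showed the clearest single change, in Gpt. This cytosolic alanine aminotransferase, which makes alanine from pyruvate and glutamate, was at 20.6 ± 1.13 CPM in vehicle and 37.8 ± 3.94 CPM in knockout sedentary muscle. In trained muscle it was at 16.4 ± 3.08 CPM (n = 5, library 2 included) and 47.3 ± 7.31 CPM (n = 3), and the groups did not overlap in either state. Gpt rose by 0.87 (SE 0.125, adjusted p = 0.000416) on the log2 scale in sedentary and by 1.52 (SE 0.140, adjusted p = 7.78e-06) in trained muscle, with all samples. Without library 2 the values were 0.88 (adjusted p = 2.3e-05) and 1.47 (adjusted p = 1.22e-06). With all samples it was the 1 of 9 genes of this list to pass in each state, where 2.33% (sedentary) and 3.29% (trained) of all genes passed. Without library 2, Gpt2, Got1 and Got2, the other aminotransferases, also rose in trained muscle, with log2 changes of 0.48, 0.69 and 0.50 (adjusted p = 0.0388, 0.00777 and 0.0400), where 8.66% of all genes passed. With all samples their values were 0.09, -0.13 and 0.51 (adjusted p = 0.898, 0.910 and 0.0736), so the direction of Got1 turned and none of the 3 passed. Glul, glutamine synthetase, fell by 1.08 in sedentary (adjusted p = 8.4e-05) and by 0.83 in trained muscle (adjusted p = 0.00783) without library 2. With all samples its values were -1.09 (adjusted p = 0.302) and -1.79 (adjusted p = 0.0656), and it did not pass. Glul and Got2 have exons that overlap another gene on the opposite strand.

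Of 9 genes linked to KLF15 in background knowledge of amino acid use, 7 were tested. In trained muscle 1 of these rose with all samples (Gpt) and 3 without library 2 (Bcat2, Bckdha and Gpt). In sedentary muscle Gpt rose in both fits, and Prodh, proline dehydrogenase, fell by 0.37 (adjusted p = 0.0496) without library 2, but had an adjusted p of 0.218 with all samples. The shares of all genes passing were 3.29% and 8.66% in trained and 2.33% and 6.98% in sedentary muscle, with all samples and without library 2; they hold for the KLF and glucocorticoid lists too. This list shares Bcat2, Bckdha, Bckdhb and Gpt with those above. In the KLF family, 13 of 16 were tested, and Klf13 fell in both states with all samples: by 0.81 (SE 0.110, adjusted p = 0.000231) in sedentary and by 0.73 (SE 0.129, adjusted p = 0.00325) in trained muscle. Its means were 72.2 ± 6.61 CPM in vehicle and 41.4 ± 6.16 CPM in knockout sedentary muscle. Without library 2, Klf3 and Klf12 also fell in trained muscle, by 0.66 and 0.57 (adjusted p = 0.0226 and 0.0135), and Klf10 rose by 0.57 in sedentary muscle (adjusted p = 0.0245). With all samples these 3 did not pass (adjusted p = 0.134, 0.309 and 0.298). Exons of Klf3 overlap Gm20033 on the opposite strand over up to 404 bases.

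Among 12 genes linked to glucocorticoid action, 3 fell in trained muscle labelled knockout with all samples and 0 rose, where 3.29% of all genes passed. The receptor itself, Nr3c1, fell by 0.38 (SE 0.101, adjusted p = 0.0453). The receptor-induced genes Fkbp5 and Tsc22d3 fell by 1.52 (adjusted p = 0.0438) and 1.13 (adjusted p = 0.0404), and without library 2 by 0.90 and 0.73 (adjusted p = 0.00755 and 0.00839). The change for Nr3c1 without it was -0.42 (adjusted p = 0.00534). Foxo1 also fell in that fit, by 0.40 in trained (adjusted p = 0.0173) and 0.45 in sedentary muscle (adjusted p = 0.00132), and Tsc22d3 fell by 0.48 in sedentary muscle (adjusted p = 0.0318). With all samples Foxo1 had adjusted p-values of 0.141 and 0.955, and Tsc22d3 one of 0.550 in sedentary muscle. Exons of Foxo1 overlap Gm20402 on the opposite strand over up to 589 bases. Klf15, known as a target of the same receptor, did not pass in either state.

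Vehicle trained library 2 was high for Klf15 together with transporters and glucocorticoid-linked genes. Against the mean of the other 4 vehicle trained libraries, Klf15 was 11.6-fold higher, and 81 of the 14359 tested genes had a higher ratio. Dbt was 2.37-fold, Bckdhb 1.99-fold, Bckdha 1.98-fold, Bcat2 1.36-fold and Ivd 1.25-fold higher, each above all other 4 libraries. Bckdk was 1.46-fold lower, below all 4, and Ppm1k lay within their range. Dld, the shared E3 subunit, was 1.36-fold lower, below all 4. Bckdha, Bckdhb and Dbt thus stood high and Dld and Bckdk low, in 1 library without a replicate. All 6 transporters were over 2-fold higher, from 2.92-fold for Slc43a2 to 12.4-fold for Slc7a5 (LAT1), and so were 11 of the 12 glucocorticoid-linked genes, with Mt2 at 182-fold. Over all tested genes 13.4% were over 2-fold higher and 21.9% over 2-fold lower. Glul was 5.65-fold and Got1 4.73-fold higher, and Oxct1 was 3.22-fold lower. The 8 adipocyte markers were all over 2-fold lower, with Lep and Pck1 at 0, and 4 of 8 macrophage markers were over 2-fold higher. Over 2-fold lower were 4 of 6 fibroblast markers (Pi16 21.4-fold and Col3a1 9.35-fold), 2 of 4 satellite-cell markers, 2 of 5 blood markers and 3 of 10 muscle-defining genes. The part of these cell types in the values of this library was not tested.

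**Figure D4:**
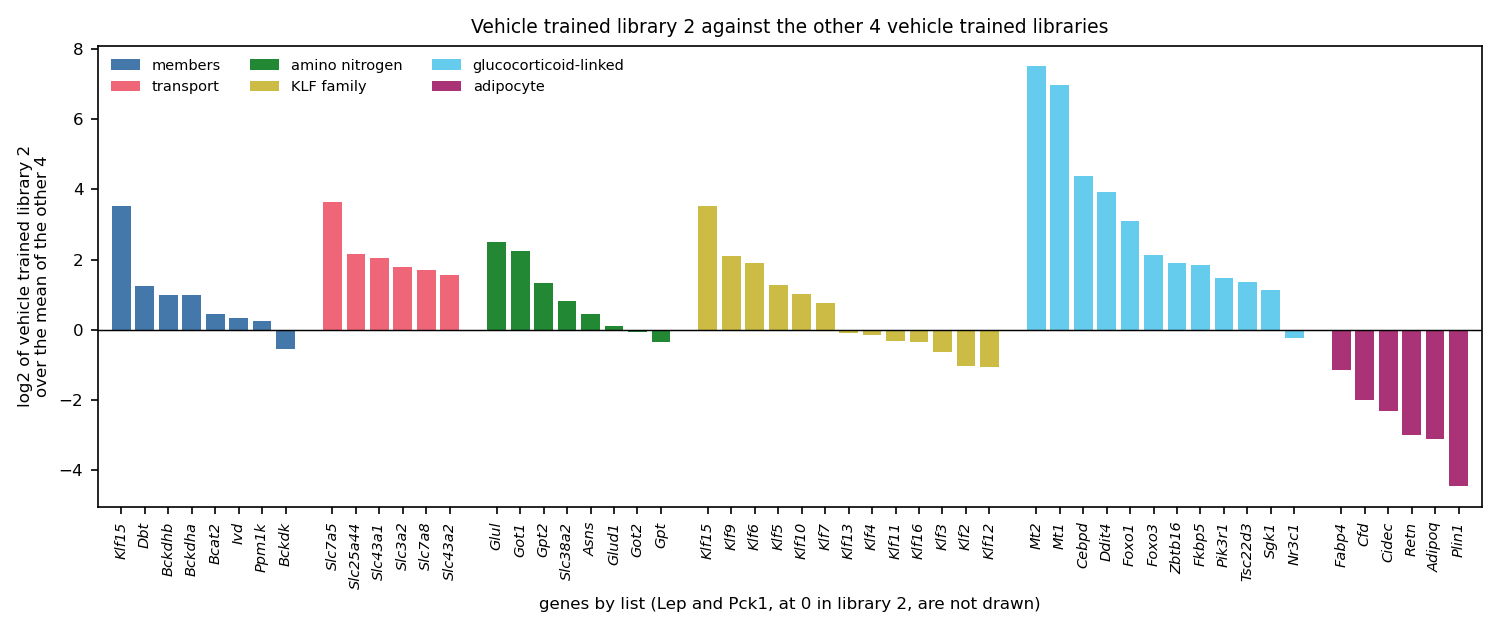
Log2 ratio of vehicle trained library 2 to the mean of the other 4 vehicle trained libraries for genes of 6 lists (Klf15 is in 2 of them). Klf15 at 11.6-fold is the tallest bar among the 8 genes, all transporter bars point up, all adipocyte bars point down, and Bckdk is the 1 gene of the 8 below 0.

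Across samples, Klf15 was compared with each of the other 7 genes on log2 CPM, and several relations by Pearson's r depended on library 2. Over 18 samples, Bckdha passed (Pearson r = 0.728, permutation p = 0.00039, adjusted over 7 relations 0.00273; Spearman rho = 0.602, permutation p = 0.00968, adjusted 0.0339). Ivd and Ppm1k passed by rho alone over the 18 samples (rho = 0.649, permutation p = 0.00483, adjusted 0.0338, and rho = 0.562, permutation p = 0.0161, adjusted 0.0375), with r = 0.290 and 0.268. Dbt had r = 0.830 (permutation p = 0.0491, adjusted 0.0832) but rho = -0.04, and Bckdhb had r = 0.7098 (permutation p = 0.0196, adjusted 0.0687) and rho = 0.331. With library 2 and vehicle trained library 4 left out, the samples farthest from the median of Klf15, r was 0.476 for Bckdha, -0.26 for Dbt and 0.0958 for Bckdhb. With library 2 alone left out, r was already -0.28 for Dbt and 0.106 for Bckdhb, so these 2 relations rest on that library. Bckdk had r = -0.57 (permutation p = 0.0594, adjusted 0.0832) with library 2 and 0.404 without it.

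Without library 2 (17 samples), 3 of the 7 relations passed for r: Ivd (r = 0.717, permutation p = 0.00114, adjusted 0.00798), Bckdha (r = 0.578, permutation p = 0.0157, adjusted 0.0411) and Ppm1k (r = 0.571, permutation p = 0.0176, adjusted 0.0411). By rho, Ivd alone passed (rho = 0.659, permutation p = 0.00516, adjusted 0.0361), and Ppm1k and Bckdha, at rho = 0.551 and 0.527, both had an adjusted p of 0.0755. With 2 more samples left out, r for Ivd was 0.597. These values mix differences between groups with those within them. On deviations from group means without library 2, none of the 7 passed after adjustment, with r = 0.566 for Ivd (permutation p = 0.0156, adjusted 0.105), 0.514 for Bckdha (adjusted 0.105) and -0.48 for Dbt (adjusted 0.105).

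The genes whose order over the 18 samples was most like that of Klf15, among 10374 genes with a mean of at least 5 CPM, were Pim3 (Spearman rho = 0.845), Art1 (0.825), Tysnd1 (0.792), Bsdc1 (0.787) and Stk11ip (0.781). Pim3, a serine/threonine kinase, was at 230.6 CPM in vehicle trained library 2 and between 21.5 and 25.0 CPM in the other 4 libraries of that group. Art1, a muscle ADP-ribosyltransferase, was at 419.5 CPM in that library and between 274.7 and 302.0 CPM in the others. Without the library, rho was 0.816 for Pim3 and 0.792 for Art1. Among the 7 other genes Ivd ranked 82, Bckdha 165, Ppm1k 254, Bcat2 444, Bckdhb 1685, Bckdk 3469 and Dbt 6097 of the 10374. Without library 2 the ranks were 59, 368, 276, 665, 3308, 1321 and 7994 in the same order of genes. These likenesses are a description over samples that share groups and, in part, library depth.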

How the data were processed

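The series is RNA sequencing of 20 mouse muscle libraries. The deposited table gives an estimated count for each of 21844 genes (72.0% of values whole), although the file is named for another unit. The column totals differ (10610333 to 19153527), which values in CPM would not. Per the submitters' processing notes, Partek, STAR 2.7.8a, DESeq2 and the builds mm10 and GRCm39 were used, with no role or order given, so no gene coordinates are printed apart from the RefSeq promoter window. Exon lengths and overlaps are from GENCODE M21.

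Estimated counts were rounded. Of 190 library pairs, 2 had a noise at high counts no more than 1.25 times that at low counts (the limit was 1.5, set with values in view; the next pair was at 2.31) and were summed for tests and averaged for means, which left 18 samples. The 14359 genes that reached 1 CPM in 5 or more libraries were tested with edgeR 4.0.16 (R 4.3.3; quasi-likelihood, TMM scaling, 4 group means in 1 fit, two-sided, Benjamini-Hochberg over all tested genes, threshold 0.05). The SE of a log2 change was computed from it and its F value. CPM are on TMM-scaled totals. The fit was checked on simulated counts. Correlations used 100000 permutations, two-sided. Vehicle trained library 2 was kept in the first fit and left out in a second, which was taken up after the data had been seen.

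Alternatives were DESeq2 1.42.0, limma 3.58.1 on log2(CPM + 1) or log2(CPM + 0.1), RLE scaling, no filter, the 20 libraries as separate, a replicate block, the contrast's groups alone, and each replicate left out. Named genes are the 8, genes of the pathway, transport, amino nitrogen, KLF and glucocorticoid lists with an adjusted p under 0.05 in either fit, the targeted gene, and the 5 genes most like Klf15; Slc25a44, Mt2, Slc43a2, Slc7a5, Pcca, Lep, Pck1, Bcat1, Dld, Mylpf, Tnni1, Pi16 and Col3a1 were named after their values were seen. A few genes of these lists are counted in the totals but not reported here by name. The 8 genes and the lists were chosen with earlier results of these data known.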

Additional observations from a re-analysis of the deposited data

Results flagged for a closer look

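Each of the 8 genes was examined in the 3 groups of 5 samples for a sample far from the other 4, which makes 24 groups; 4 had one, where chance would give about 1.2. In vehicle trained muscle, library 2 was far from the others for Klf15 (467.9 CPM, the others between 37.6 and 42.8), Bckdha (171.5 CPM, the others between 76.6 and 100.4) and Dbt (85.7 CPM, the others between 32.5 and 37.8). In knockout sedentary muscle, library 2 was far from the others for Bckdk (96.3 CPM, the others between 86.1 and 88.5), a small distance in a tight group. About 1 in 20 groups is singled out this way by chance. The genes share libraries, and every far sample in vehicle trained muscle was library 2, so the groups are not independent. The count is therefore not a test against chance.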

How the results depend on the processing

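Limits first: 1 library decides the direction of Klf15 in 3 contrasts, and the knockout trained group has 3 samples. The main edgeR fits called some of the 8 genes in 1 contrast only, without vehicle trained library 2. DESeq2 and altered edgeR fits (libraries as separate, or single samples left out) also called some in other contrasts or with all samples. The lowest count of the 8 genes in any library is 155; other named genes rest on fewer. Of 1032 alternative values of single genes with all samples, 992 kept direction and side of the threshold, and of 920 without library 2, 858 did. Most of these values belong to tests without a call, so the totals say little about the calls. Without library 2, 20 values lost a call, all among Bcat2, Bckdha, Bckdk and Ivd in trained knockout muscle, and mostly for Bckdk and Ivd.

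With all samples, the number of the 8 genes called in trained knockout muscle was 0, and became 1 with DESeq2, 2 with the 20 libraries as separate, and 0 to 4 when single samples were left out (4 without vehicle trained library 2). The log2 change of Klf15 there was -1.39, and -0.45 with limma. Without library 2, the 4 calls became 2 with no filter and 0 to 4 with single samples left out. In the other contrasts without library 2, the count of 0 became 1 with DESeq2, 2 with libraries as separate and 0 to 1 with samples left out (knockout in sedentary muscle), 3, 3 and 0 to 3 (training in knockout muscle), and 1 with DESeq2 (interaction). The correlation with Klf15 passed for 1 of 7 genes, 3 without library 2, 2 with separate libraries, 6 on deviations from group means, 3 with RLE scaling and 0 on deviations without library 2. The sign of r turned for Bckdk (0.404) and Dbt (-0.28) without library 2, and on deviations without it for Bckdhb (-0.13), Bckdk (0.30) and Dbt (-0.48).

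Values near 0 changed sign. For the knockout effect in sedentary muscle, Ivd moved to 9.1e-05 and 0.000118 with the limma pseudocounts of 1 and 0.1 and 0.00117 with separate libraries. In the fit without library 2 it moved to -0.0047 with RLE, -0.0045 with DESeq2, -0.0040 with no filter and -0.0194 with separate libraries, and Bckdha to -0.0028 with separate libraries. With single samples left out, the sedentary knockout value ranged from -0.0434 to 0.0726 for Bckdha (-0.0435 to 0.0721 without library 2) and from -0.0465 to 0.0332 for Ivd (-0.0463 to 0.0399 without library 2). The trained knockout value ranged from -1.62 to 0.27 for Klf15, -0.0699 to 0.29 for Bckdhb and -0.0272 to 0.19 for Ppm1k. Training in vehicle muscle ranged from -0.32 to 1.56 for Klf15, -0.19 to 0.16 for Bckdha, -0.16 to 0.20 for Bckdhb and -0.0705 to 0.38 for Dbt. Training in knockout muscle ranged from -0.0099 to 0.0854 for Klf15 (-0.0090 to 0.0738 without library 2) and from -0.0103 to 0.139 for Dbt (-0.0221 to 0.136). The interaction ranged from -1.53 to 0.35 for Klf15 and from -0.33 to 0.13 for Dbt. The cause of these changes was not tested.

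Replicate numbers did not pair the samples: over 30 pairs with the same number in different groups, correlations of deviations ran from -0.34 to 0.295 with a median of 0.0197, 11 were over 0.1, and 4 of 20 libraries were most like a library of their own number. With the replicate number as a block and the 20 libraries as separate, the count in trained knockout muscle was 1 with all samples and 4 without library 2, that in sedentary knockout muscle without library 2 was 1, and that for training in knockout muscle was 0. The sedentary value of Ivd was then 0.0045, and -0.0210 without library 2.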
